A study of Mus musculus with 6 samples.

Results

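The 38 genes described here act in the M phase of the cell cycle: cyclins and kinases of mitotic entry, the spindle checkpoint, the kinetochore, spindle motors and the machinery of cytokinesis. They were taken as a list of gene names, drawn up with earlier results of these data known, and each was read by the brightest probe set (highest mean of the 6 arrays) that the platform annotation pairs with that gene alone. This gave 37 of the 38 genes, out of 18193 genes represented in the same way; cyclin B1 (Ccnb1) was not analysed here. The arrays carried RNA of intestinal epithelial cells from C57BL/6 mice. The 3 control animals carried the floxed Casp8 gene without Cre (villinCre negative), and the 3 deleted animals carried the floxed gene with Cre (villinCre positive). The villin promoter is active in epithelial cells of the gut, so cells other than epithelium keep Casp8 in both groups. The labels state neither the animals' age, nor the region of gut, nor which exons Cre removes. Each animal gave 1 array, and all values are log2 expression made by robust multi-array average (RMA), in which a difference of 1 is a doubling.

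In the gut, division is confined to the crypts, where stem cells and their transit-amplifying daughters cycle, while the villus cells above them have left the cycle. Cyclin-dependent kinase 1 with cyclin A or B drives entry into mitosis, Aurora and Polo-like kinases build the spindle, the checkpoint holds the cell until every kinetochore is attached, and the anaphase-promoting complex with Cdc20 then destroys cyclin B and securin. Most of these transcripts are made in G2 and M and are scarce in cells that do not divide. In RNA of a whole cell preparation, fewer dividing cells and less of each transcript per cell cannot be told apart.

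Mitosis and spindle genes stood slightly lower on the deleted arrays, nearly all of them together, and no single gene passed the test. Of the 37 measured genes, 36 had a difference below 0 (deleted minus control), against 46.1% of all genes, and Foxm1 alone stood above it. The median difference was −0.36 on the log2 scale, or 1.28-fold lower, against 0.022 over all genes. The differences ran from −0.82 for Mki67 to 0.06 for Foxm1. With limma and Benjamini-Hochberg adjustment over the 18193 genes, 0 of the 37 were called at an adjusted p of 0.05, where 0.775% of all genes were called, 0.467% lower and 0.308% higher. Their adjusted p ran from 0.0975 to 0.824. At an unadjusted p under 0.05, 23 of the 37 were lower and 0 higher, against 8.53% of all genes lower and 8.12% higher. That count moved with single arrays: it was 10 without control replicate 1 (6.44% of all genes) and without deleted replicate 3 (5.84%), and 14 without control replicate 2 (6.75%) and without deleted replicate 2 (6.34%). It was 15 with median centring (5.67%) and 2 with the Gapdh covariate described further on (4.78%). In 24 of the 37 every deleted array lay below every control array, against 11.2% of all genes, and in 0 above, against 11.5%. With array weights, which let limma count noisier arrays less, 7 of the 37 passed: Mki67, Cenpf, Cdca8, Incenp, Cdc20, Kif11 and Melk. That setting called 1406 genes in all, against 141. It weighted control replicate 1 at 2.97 and deleted replicate 2 at 2.36, and the other arrays at 0.45 to 0.79. Each group's mean thus rested mostly on a single array.

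**Figure D1:**
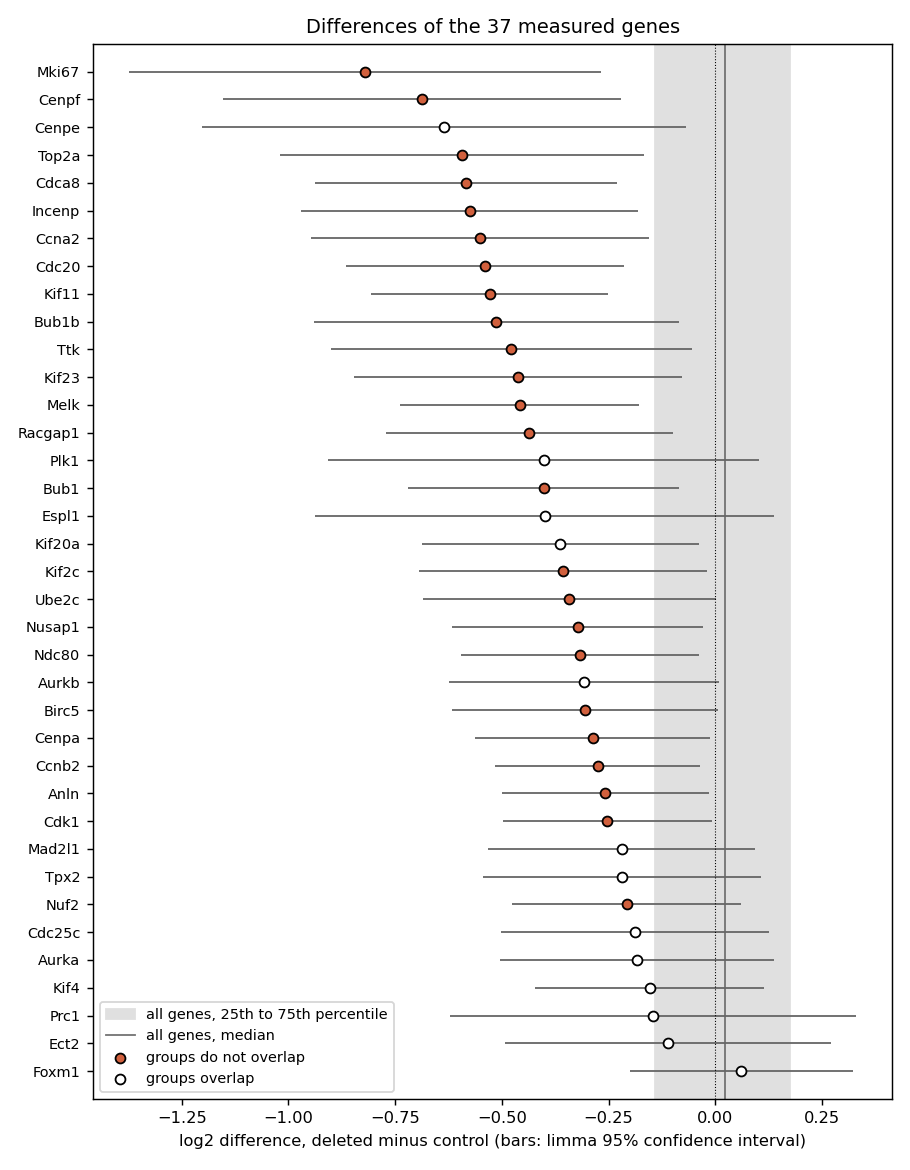
Log2 difference (deleted minus control) of each of the 37 measured mitosis and spindle genes with its 95% confidence interval from limma, sorted from the lowest at the top (n = 3 arrays per group). Filled points mark genes whose groups did not overlap; the grey band is the interquartile range and the grey line the median over all 18193 genes. The points run from −0.82 to 0.06, and 24 of 37 are filled.

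These genes are known to share promoter elements, so the windows around their starts are shown before the values. The cell cycle genes homology region (CHR), with the core TTTGAA, is bound by the DREAM and MuvB complexes, which repress such genes in resting cells and turn them on in G2, and the CCAAT box is bound by NF-Y. RefSeq windows of 300 bases (250 before to 50 after the start, GRCm38.p6) were at hand for 31 of the 38 genes. The stretches printed run from 120 bases before to 30 after the start, 5′ to 3′ on the gene's strand. They belong to genes of different roles with low values on the deleted arrays and to the core pair Cdk1 and Ccnb2, and were chosen after their values were seen. All of the printed stretches hold TTTGAA, which 8 of the 31 windows lack. Capitals mark TTTGAA or CCAAT, or their reverse complements TTCAAA and ATTGG.
Mki67: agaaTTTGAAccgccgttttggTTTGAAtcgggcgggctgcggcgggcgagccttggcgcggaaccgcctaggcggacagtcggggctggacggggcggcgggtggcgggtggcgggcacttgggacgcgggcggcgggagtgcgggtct
Top2a: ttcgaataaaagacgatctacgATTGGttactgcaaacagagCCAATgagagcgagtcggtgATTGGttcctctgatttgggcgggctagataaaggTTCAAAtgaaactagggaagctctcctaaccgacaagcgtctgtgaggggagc
Cenpf: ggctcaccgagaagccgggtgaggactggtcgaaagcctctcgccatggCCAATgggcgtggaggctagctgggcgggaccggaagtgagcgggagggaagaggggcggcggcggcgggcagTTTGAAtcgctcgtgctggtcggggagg
Cdca8: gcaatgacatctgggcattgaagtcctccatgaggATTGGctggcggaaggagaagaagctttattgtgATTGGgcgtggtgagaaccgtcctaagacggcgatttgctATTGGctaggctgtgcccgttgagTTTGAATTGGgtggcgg
Cdc20: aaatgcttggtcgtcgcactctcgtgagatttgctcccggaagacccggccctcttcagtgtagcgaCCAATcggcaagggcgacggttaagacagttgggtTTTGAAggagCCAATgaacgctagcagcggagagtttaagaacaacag
Kif11: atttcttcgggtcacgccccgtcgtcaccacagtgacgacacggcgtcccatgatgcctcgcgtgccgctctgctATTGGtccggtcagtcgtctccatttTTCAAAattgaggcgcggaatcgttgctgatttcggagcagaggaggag
Ccnb2: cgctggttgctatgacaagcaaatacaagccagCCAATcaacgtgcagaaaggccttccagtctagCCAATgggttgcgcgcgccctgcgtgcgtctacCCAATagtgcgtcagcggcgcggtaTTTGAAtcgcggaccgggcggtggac
Cdk1: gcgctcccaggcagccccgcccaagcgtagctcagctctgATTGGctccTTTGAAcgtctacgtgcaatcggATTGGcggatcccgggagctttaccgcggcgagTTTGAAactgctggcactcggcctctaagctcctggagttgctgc
Their places are chr7:135716350-135716499 (minus strand) for Mki67, chr11:99024160-99024309 (minus) for Top2a, chr1:189688057-189688206 (minus) for Cenpf and chr4:124936888-124937037 (minus) for Cdca8. Those of Cdc20, Kif11, Ccnb2 and Cdk1 are chr4:118437314-118437463 (minus), chr19:37376262-37376411 (plus), chr9:70421525-70421674 (minus) and chr10:69352883-69353032 (minus).

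TTTGAA, on either strand, was in 23 of the 31 windows (74.2%), against 13.3% of the 14452 windows of genes on the array and 18.1% of all 27025 genes with a window. In 21 of the 31 windows (67.7%) a match began no further than 50 bases before the start, against 3.32% of genes on the array. Cenpf, Kif23, Racgap1 and Ccnb2 held it within the first bases transcribed, beginning at positions 3, 3, 6 and 5, and Cdc20, Kif11 and Cdk1 just before the start, at −18, −19 and −15. In Mki67 a pair of matches lay further up, at −116 and −98. CCAAT, on either strand, was in 23 of the 31 windows (74.2%), against 38.2% on the array, and 48.4% held it at least 2 times, against 13.5%. Both motifs were present in 20 windows (64.5%), against 5.37%. The motifs overlapped 1 time in the 31 windows, in Cdca8, where TTTGAA and ATTGG share letters. No TTTGAA was found in the windows of Melk, Nusap1, Bub1, Cenpe, Birc5, Mad2l1, Nuf2 and Ccnb1.

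Other gene lists were searched in the same way. A separate list of 76 other mitotic genes held TTTGAA in 31 of 60 windows (51.7%), while 50 genes of DNA replication and S phase held it in 7 of 40 (17.5%) and enterocyte markers in 4 of 21. CCAAT was in 68.3% and 60.0% of the windows of the former lists and in 4 of the 21 enterocyte windows. Among measured mitosis and spindle genes, the 23 with TTTGAA had a median difference of −0.40 (range −0.82 to −0.11) and the 7 without it one of −0.32 (range −0.64 to −0.21). The ranges overlap, and a match is a description of letters, not a shown site of binding.

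**Figure D2:**
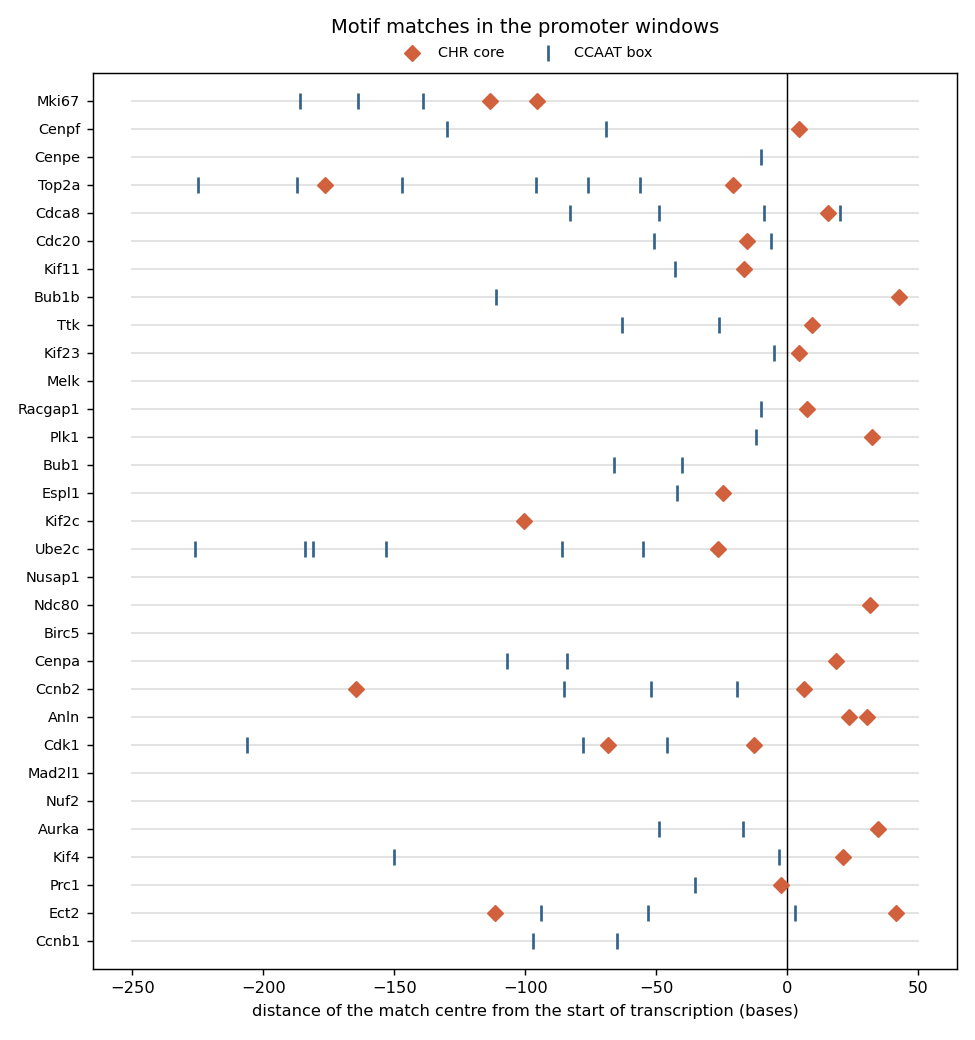
Place of each motif match in the promoter windows of 31 mitosis and spindle genes, as the distance in bases of the match's centre from the start of transcription, with genes sorted by their log2 difference (Ccnb1, not measured, last). Diamonds are matches to the CHR core and ticks matches to the CCAAT box, on either strand; 21 of the 31 windows hold a diamond beginning no further than 50 bases before the start, and 35 of the 52 ticks lie within 100 bases before it.

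Depth of signal and RNA state bear on these values in a few respects. The means of the 37 probe sets over the 6 arrays ran from 5.52 to 9.85, and 36 of 37 were at least 6, against a median of 5.97 over all genes. As a measure of RNA integrity, the 3′ control probe set for Gapdh read above the 5′ one by 0.68 (control replicate 1), 0.93 (control replicate 2) and 0.22 (control replicate 3), against 0.21 to 0.29 on deleted arrays; degraded RNA widens this Gapdh difference. Deleted replicate 1 stood apart in endothelial markers, whose median over 16 genes was 1.62 above the control mean there and −0.02 and 0.04 on the other deleted arrays. Fibroblast and smooth muscle markers were highest there too, at a median of 0.51, against 0.12 and −0.03 on the other deleted arrays. Enterocyte markers averaged 12.0 to 12.3 on every array, and the mean of 16 endothelial markers was 4.16 to 4.42 on the other 5. Casp8 read 10.53, 9.74 and 10.24 on control arrays 1 to 3 and 9.27, 9.56 and 10.40 on deleted arrays 1 to 3, at a difference of −0.43 (adjusted p = 0.518, limma). Deleted replicate 3 thus lay above control replicates 2 and 3. The probe set may lie outside the deleted exons, so it does not check the genotypes; without deleted replicate 3 the median of the 37 mitosis and spindle genes was −0.30.

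Among the cyclins and kinases that drive entry into mitosis, 7 of 8 measured genes stood below 0 and 4 had groups that did not overlap, with a median of −0.26. Over all genes 46.1% stood below 0 and 11.2% were lower without overlap. Cdk1, the kinase of mitotic entry, read 8.88, 8.74 and 8.78 on control arrays 1 to 3 and 8.58, 8.497 and 8.57 on deleted arrays 1 to 3, the order used throughout. All deleted arrays lay below all controls, by a narrow margin set against a small spread. The difference was −0.25 (SE 0.11, limma adjusted p = 0.286). Ccnb2, a B-type cyclin that binds Cdk1, read 8.86, 8.95 and 8.83 against 8.61, 8.62 and 8.58. The groups did not overlap, the SDs were 0.06 and 0.02 (n = 3), and the difference was −0.28 (SE 0.10, limma adjusted p = 0.248). Ccna2, the cyclin A of S phase and early mitosis, read 9.70, 10.05 and 9.49 against 9.35, 9.24 and 8.997. The groups did not overlap and the mean was 1.46-fold lower (−0.55, SE 0.17, limma adjusted p = 0.182), while a second probe set stood at −0.22, also without overlap.

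Melk, a kinase abundant in dividing progenitors, read 8.28, 8.19 and 8.04 in the controls and 7.83, 7.69 and 7.61 on the deleted arrays. The groups did not overlap, at a difference of −0.46 (SE 0.12, limma adjusted p = 0.136). Plk1, the Polo-like kinase of spindle assembly, read 8.08, 8.72 and 7.82 against 7.90, 7.82 and 7.69. Here control replicate 2 stood far above all others and control replicate 3 lay among the deleted arrays. Its difference of −0.40 (SE 0.22) went to 0.028 with the Gapdh difference as a covariate. Aurka, the Aurora kinase of the spindle poles, stood at −0.18 with overlapping groups, and against control replicate 3 alone at 0.04. Cdc25c, the phosphatase that switches on Cdk1, stood at −0.19, also with overlap.

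Foxm1, the transcription factor that activates many G2 and M genes, did not share the pattern by its brightest probe set. It read 6.16, 6.11 and 6.16 in the controls and 6.35, 6.12 and 6.14 on the deleted arrays. The groups overlapped, at 0.06 (95% confidence interval −0.20 to 0.32), and deleted replicate 1 was the highest. Its other 3 probe sets stood at −0.16, −0.46 and 0.12, and their mean with the first at −0.11.

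All 4 genes of the spindle checkpoint stood below 0, with a median of −0.44. In 3 of them the groups did not overlap, against 11.2% of all genes lower without overlap. Bub1b, which encodes the checkpoint protein BUBR1, read 7.63, 7.82 and 7.42 in the controls and 7.40, 7.17 and 6.76 on the deleted arrays. Deleted replicate 3 was far the lowest, and deleted replicate 1 lay just under control replicate 3. The difference was −0.51 (SE 0.19, limma adjusted p = 0.233), and its other probe sets stood at −0.36 and −0.25. Ttk, the kinase MPS1 that starts checkpoint signalling, read 7.14, 7.22 and 6.96 against 6.84, 6.82 and 6.23. It too was lowest in deleted replicate 3, at a difference of −0.48 (SE 0.18), with a dim second probe set at −0.12. Bub1, a kinase of the outer kinetochore, stood at −0.40 without overlap, and its dim second probe set at −0.14 with overlap. Mad2l1, the checkpoint protein MAD2, stood at −0.22, and its groups overlapped through control replicate 2.

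The 3 genes of anaphase control stood at −0.34 to −0.54. Cdc20, the activator of the anaphase-promoting complex, read 9.996, 10.38 and 9.96 in the controls and 9.60, 9.63 and 9.48 on the deleted arrays. The gap between the lowest control and the highest deleted array, 0.33, was wide next to the SD of 0.08 within the deleted group. The mean was 1.45-fold lower (−0.54, SE 0.14, limma adjusted p = 0.131), while its other probe sets stood at −0.22 and −0.19. Ube2c, the ubiquitin-conjugating enzyme of that complex, read 9.95, 10.19 and 9.91 against 9.91, 9.65 and 9.47. Deleted replicate 1 and control replicate 3 were level to the second decimal. Espl1, the separase that cuts cohesin, stood at −0.40 with overlapping groups, and at 0.0075 with the Gapdh covariate.

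The chromosomal passenger complex, Aurora B with its partners, corrects faulty attachments and directs cytokinesis. All 4 genes stood below 0, with a median of −0.44. Cdca8, which encodes borealin, read 9.63, 9.93 and 9.42 in the controls and 9.14, 9.14 and 8.94 on the deleted arrays. The groups were 0.27 apart, and the difference was −0.58 (SE 0.15, limma adjusted p = 0.133). Its other probe sets, also bright, stood at −0.33 and −0.17, both with overlapping groups. Incenp, the scaffold of the complex, read 9.57, 9.89 and 9.27 against 9.09, 9.06 and 8.85. The deleted arrays again lay below all controls, at −0.58 (SE 0.17), and a second bright probe set stood at −0.34 without overlap. Birc5, which encodes survivin, and Aurkb stood at −0.31 each. For Aurkb, control replicate 2 was level with deleted replicate 2 at 7.07.

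In the kinetochore genes, 5 of 5 stood below 0 and 4 had groups that did not overlap, against 11.2% of all genes lower without overlap. Cenpf, a large protein of the outer kinetochore made in G2, read 7.70, 7.85 and 7.30 in the controls and 7.19, 7.04 and 6.57 on the deleted arrays. Control replicate 3 lay nearest to the deleted arrays, and deleted replicate 3 was the lowest. The mean was 1.61-fold lower (−0.69, SE 0.20, limma adjusted p = 0.167). Its other probe sets, both dim, stood at −0.40 and −0.16 with overlapping groups. Cenpe, the kinesin that carries chromosomes to the spindle equator, read 7.75, 8.33 and 7.43 against 7.11, 7.55 and 6.94. Its difference was −0.64 (SE 0.25), but deleted replicate 2 lay above control replicate 3. A second Cenpe probe set stood at −0.79, from 7.67, 8.30 and 7.57 to 7.21, 7.23 and 6.74, without overlap. Cenpa, the histone of centromeres, stood at −0.29, and Ndc80 and Nuf2, which grip the microtubule, at −0.32 and −0.21. For Nuf2 the lowest control lay only 0.001 above the highest deleted array.

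Of the spindle motors and assembly factors, Kif11 came closest to the threshold of all 37 genes. Kif11, the kinesin that pushes spindle poles apart, read 7.66, 7.79 and 7.53 in the controls and 7.08, 7.24 and 7.07 on the deleted arrays. The groups were 0.29 apart. The mean was 1.44-fold lower (−0.53, SE 0.12, 95% confidence interval −0.81 to −0.25, limma adjusted p = 0.0975). Its other probe sets stood at −0.32 and −0.44. Kif2c, a microtubule depolymerase, and Nusap1, a microtubule binder, stood at −0.36 and −0.32 without overlap. The other probe sets of Kif2c, all dim, stood at −0.11, 0.17 and 0.21 with overlapping groups. Tpx2 and Kif4, a spindle assembly factor and a chromosome-bound kinesin, stood at −0.22 and −0.15 with overlap. A second Tpx2 probe set stood at −0.60 without overlap, and its dim ones at 0.02 and 0.07 with overlap.

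Genes of the central spindle and cytokinesis were mixed, with 3 of 6 free of overlap, against 11.2% of all genes lower without overlap. Racgap1, the GTPase-activating protein of the central spindle, read 7.09, 7.57 and 7.32 in the controls and 6.96, 6.93 and 6.78 on the deleted arrays. Control replicate 1 was the nearest of the controls, at a difference of −0.44 (SE 0.15, limma adjusted p = 0.205), and its other probe sets stood at −0.76 and, dim, at −0.10. Its partner Kif23 and the contractile ring protein Anln stood at −0.46 and −0.26, both without overlap, and Kif20a at −0.36 with a bare overlap. Ect2, the activator of RhoA at the division plane, stood at −0.11. Prc1, which bundles microtubules of the central spindle, read 8.31, 8.76 and 7.96 against 8.31, 8.30 and 7.99. Control replicate 3 was the lowest of the 6 arrays and control replicate 2 the highest, so that the difference of −0.15 became 0.063 without control replicate 2; a second probe set stood at −0.02.

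The highest difference in size belonged to the genes of chromosome structure. Mki67, the proliferation antigen that coats mitotic chromosomes, read 10.25, 10.62 and 9.84 in the controls and 9.66, 9.58 and 9.003 on the deleted arrays. All deleted arrays lay below all controls, yet the controls spread over more than the gap. The mean was 1.77-fold lower (−0.82, SE 0.24, limma adjusted p = 0.164). Top2a, the topoisomerase that disentangles sister chromatids, read 9.42, 9.81 and 9.25 against 9.04, 9.04 and 8.62. It too was highest in control replicate 2 and lowest in deleted replicate 3, and its mean was 1.51-fold lower (−0.59, SE 0.18, limma adjusted p = 0.182). Its other probe sets stood at −0.46 and, dim, at −0.05. The only other genes at least 1.5-fold lower were Cenpf and Cenpe.

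**Figure D3:**
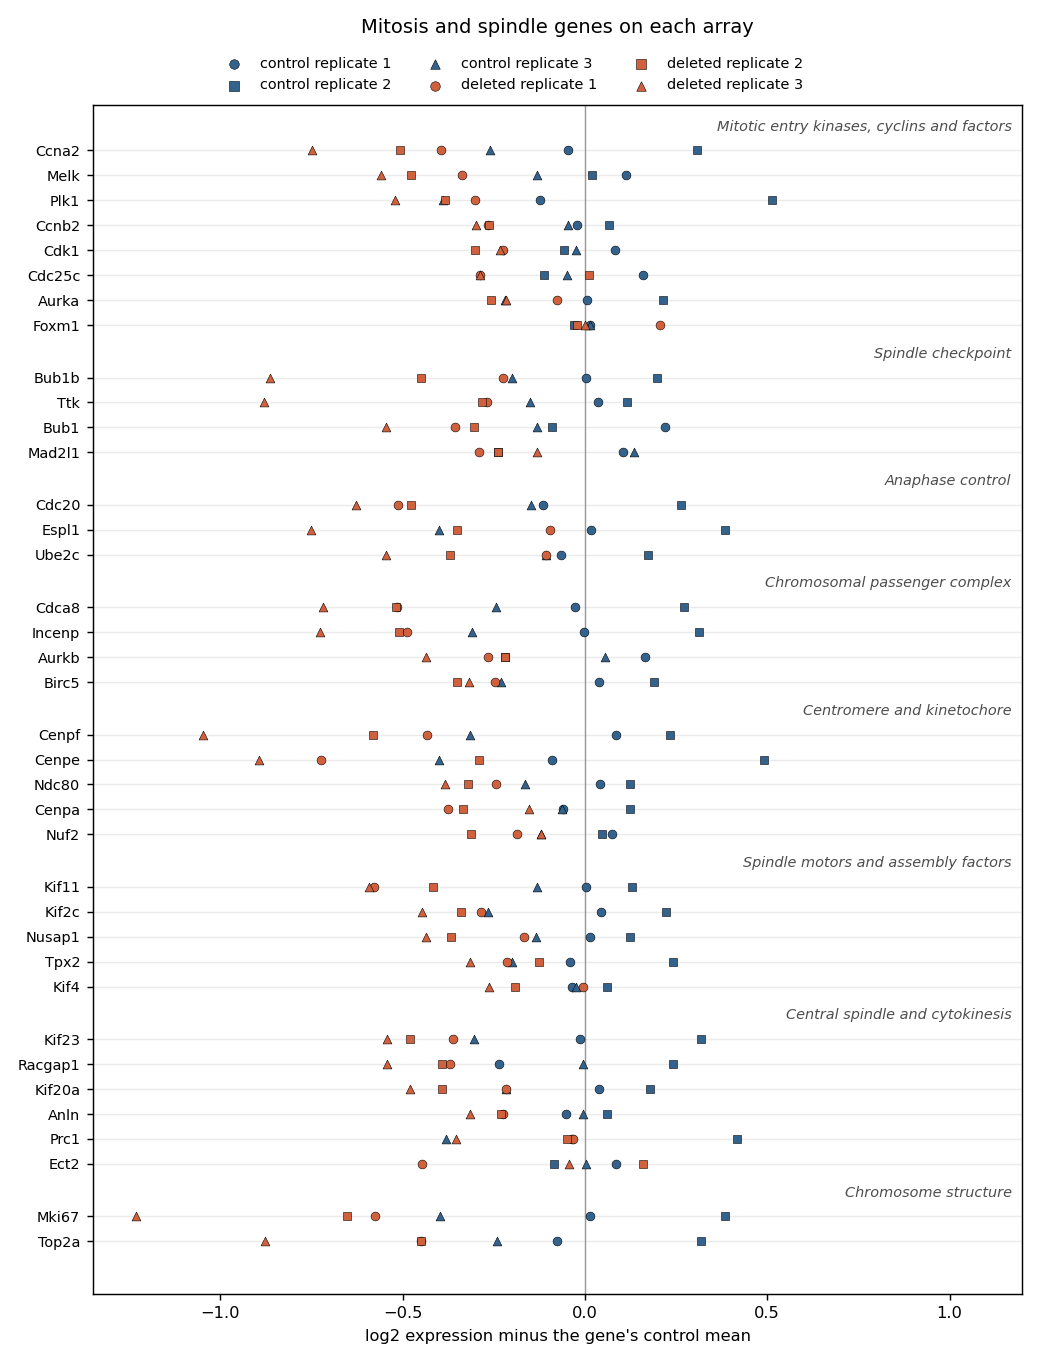
Log2 expression of each measured mitosis and spindle gene on the 6 arrays, minus that gene's control mean, grouped by role. Control arrays are blue and deleted arrays orange, with a marker for each replicate; control replicate 2 (squares) is highest in 28 of 37 genes and deleted replicate 3 (orange triangles) lowest in 27.

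The genes varied together from array to array within the groups as well. Control replicate 2 was the highest of the 6 arrays in 28 of the 37 genes, against 23.3% of all genes, and deleted replicate 3 the lowest in 27, against 17.9%. Control replicate 3 was the lowest of the controls in 28. The median of the 37 genes relative to their control means was 0.0044, 0.18 and −0.15 on control arrays 1, 2 and 3, and −0.29, −0.34 and −0.48 on deleted arrays 1, 2 and 3. All deleted arrays thus lay below all controls, and the distance from control replicate 3 to deleted replicate 1 was smaller than the range of the controls.

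The order of the controls ran alongside their Gapdh difference. Replicate 2 stood above 1 and 1 above 3 in 25 of the 37 genes, against 21.1% of all genes, and the Gapdh difference had that order too. Against control replicate 3 alone, whose Gapdh difference was that of the deleted arrays, the deleted mean was lower in 33 of 37 genes. All 3 deleted arrays lay below it in 26, against 25.7% of all genes. The median difference was then −0.23, against 0.0098 over all genes, and it was −0.22 with the Gapdh difference as a covariate. In that fit 32 of 37 stood below 0, 2 were lower at an unadjusted p under 0.05, and the smallest adjusted p was 0.504 (limma). Both values rest on few arrays, and the Gapdh difference itself differs between the groups. Control replicate 3 also stood apart from the other controls in B and plasma cell markers, at a median of 0.45 above the control mean. The part of RNA integrity in the mitotic values was not tested.

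**Figure D4:**
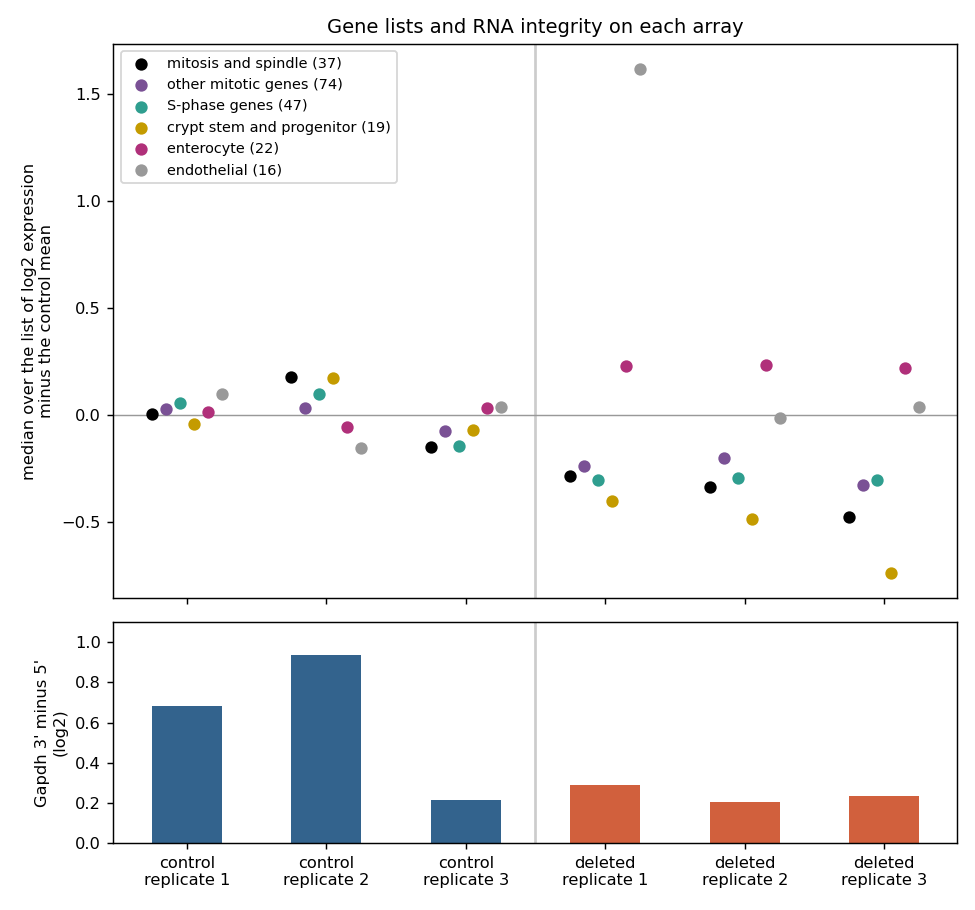
Upper panel, the median over each gene list of log2 expression minus the control mean, on each of the 6 arrays; lower panel, the 3′ minus 5′ Gapdh difference (log2) of the same arrays, starting at 0. Mitosis and spindle genes (black) lie at −0.15 to 0.18 in the controls and −0.48 to −0.29 on the deleted arrays, and endothelial markers (grey) stand out at 1.62 on deleted replicate 1.

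Other probe sets of the same genes gave the same sign where they were bright. Of the 37 genes, 23 had more than 1 single-gene probe set, which added 41. Of these, 32 stood below 0 and 9 above it, with a median of −0.22. All 14 with a mean of at least 6 stood below 0 (median −0.34), and of the 27 dimmer ones 18 did (median −0.12). In 13 of the 23 genes the brightest probe set was also the lowest difference. Incenp had dim probe sets at −0.98, 0.02 and 0.11, and Kif23 ones at −0.76 and 0.08. If every probe set of a gene had to be free of overlap, 10 genes would be, not 24. Among the genes with more than 1 probe set, only Anln and Ccna2 met this. The others, Cdk1, Ccnb2, Melk, Ube2c, Birc5, Ndc80, Nuf2 and Mki67, had a single probe set.

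**Figure D5:**
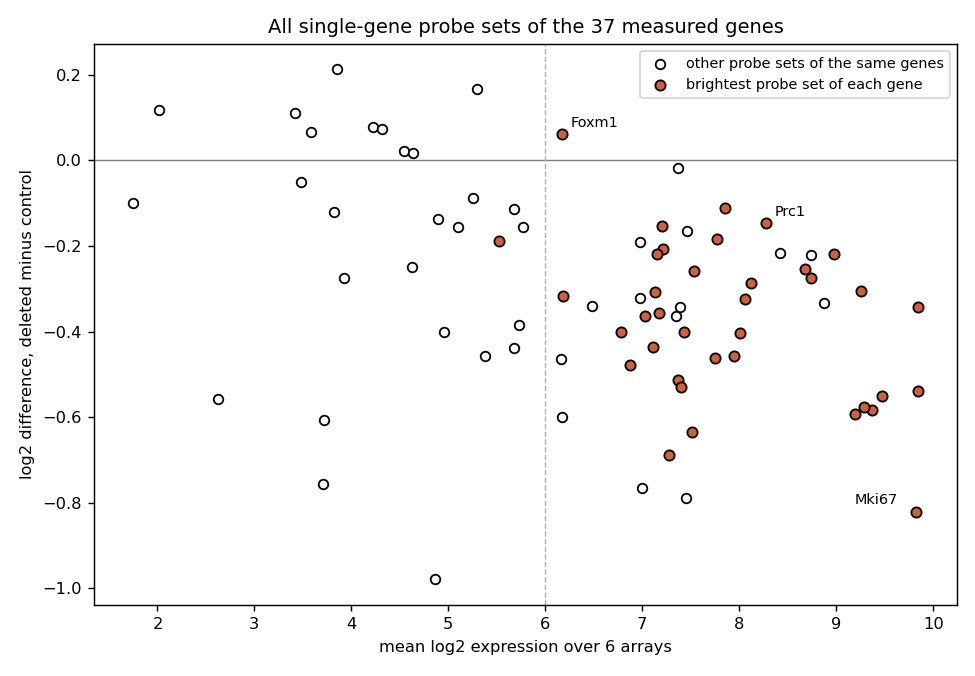
Log2 difference (deleted minus control) against mean log2 expression over the 6 arrays, for all 78 single-gene probe sets of the 37 measured genes; the dashed line marks a mean of 6. Filled points are the brightest probe set of each gene and open points the other 41; right of the dashed line, Foxm1 is the one filled point above 0.

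Most of a list of other mitotic genes also lay below 0. Of 74 measured other mitotic genes, 64 lay below 0 and 10 above it, 31 were lower without overlap and 1 higher, and 0 were called (28 lower and 1 higher at an unadjusted p under 0.05, limma), with a median of −0.27. Across all genes 11.2% were lower and 11.5% higher without overlap. At an unadjusted p under 0.05, 8.53% of all genes were lower and 8.12% higher (limma). Of the 74, 12 were called lower with array weights and 1 without dim genes. Sgo1, the protector of centromeric cohesin, read 7.49, 7.54 and 7.42 in the controls and 6.93, 7.01 and 6.99 on the deleted arrays. It was the nearest to a call, at −0.51 (SE 0.11, limma adjusted p = 0.081). The Aurora A cofactor Bora stood at −0.67, the microtubule destabiliser Stmn1 at −0.70, the kinetochore gene Spc25 at −0.39 and the phosphatase Cdc25b at −0.51, all without overlap.

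Condensin and cohesin genes lay below 0 in 18 of 19 cases (median −0.33, 0 called and 8 lower at an unadjusted p under 0.05, limma), with the condensin subunit Ncapd2 at −0.72, the cohesin regulator Pds5b at −0.55 and sororin (Cdca5) at −0.57. Subunits and regulators of the anaphase-promoting complex, which resting cells use as well, lay near the level of all genes. Of these, 9 of 16 stood below 0, with a median of −0.06 and 0 called (2 lower at an unadjusted p under 0.05, limma), although Anapc5 stood at −0.64 and the inhibitor Fbxo5 at −0.45. Of 14 genes of the DREAM and MYBL2 regulators 10 stood below 0 (median −0.10, 0 called and 4 lower at an unadjusted p under 0.05, limma), the repressor E2f8 at −0.68. Across all genes 46.1% stood below 0 and 8.53% were lower at an unadjusted p under 0.05 (limma). With array weights 3 condensin and cohesin genes, 1 of the anaphase-promoting complex and 3 DREAM and MYBL2 regulators were called lower. Without dim genes 1 DREAM and MYBL2 regulator was.

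Genes of S phase, in which DNA is copied ahead of mitosis, were counted too. Of 47 measured, 45 lay below 0, 21 without overlap, with a median of −0.31 and 0 called (21 lower at an unadjusted p under 0.05, limma). Across all genes 11.2% were lower without overlap. At an unadjusted p under 0.05, 8.53% of all genes were lower and 8.12% higher (limma). Of the 47, 8 were called lower with array weights, 2 without dim genes and 1 without control replicate 3. The DNA ligase Lig1 stood at −0.70 (limma adjusted p = 0.0788), the uracil glycosylase Ung at −0.73, the helicase subunit Mcm6 at −0.53, the polymerase Pola1 at −0.48 and the thymidine kinase Tk1 at −0.45. CDK inhibitors and p53 targets had a median of 0.11, with 8 of 21 below 0 and 0 called (3 lower and 3 higher at an unadjusted p under 0.05, limma). With array weights 1 of the 21 was called higher. The polo-like kinase Plk3, Perp and Mdm2 stood at 0.65, 0.38 and 0.43, although a second bright Mdm2 probe set stood at −0.04 and a dim one at −0.15. The CDK inhibitors Cdkn2d and Cdkn2c and the p53 target Aen stood at −0.37, −0.39 and −0.31.

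Markers of the cells that divide and of those that do not were set beside these values. Of 19 crypt stem and progenitor markers 18 lay below 0 (median −0.57), and 2 were called, Sox9 and Lgr5. Sox9 fell by 0.87 (limma adjusted p = 0.0263). Its other probe sets stood at −0.86 and, dim, at −0.36, not called when each was tested separately. Lgr5 fell by 1.62 (limma adjusted p = 0.0488), with a dim second probe set at −0.02. Neither call was firm, though both held in some settings. With array weights, without dim genes and with a variance trend and robust prior, both were called. Adjusted p there ran from 0.0059 to 0.0186 for Sox9 and from 0.0111 to 0.0288 for Lgr5 (limma). Without any one of the 3 controls, deleted replicate 2 or deleted replicate 3, adjusted p ran from 0.0761 to 0.128 for Sox9 and from 0.0785 to 0.194 for Lgr5 (limma). With the Gapdh covariate it was 0.200 and 0.357, and with the mean over probe sets 0.0550 and 0.0881. Lgr5 was also not called with every probe set tested separately (0.0612), nor Sox9 with the replicate block (0.0541). Their medians by array were 0.17 to −0.07 in the controls and −0.40, −0.49 and −0.74 in deleted replicates 1, 2 and 3, the order the mitosis and spindle genes had. Of 22 enterocyte markers 20 stood above 0 (median 0.25, 1 called, and 0 without any one array other than deleted replicate 1). Of 9 Paneth and 16 goblet cell markers, 8 and 7 were called lower, with medians of −2.05 and −0.83. Without 1 array, 5 to 8 Paneth and 1 to 7 goblet cell markers were called, and with the Gapdh covariate 6 and 1. The lowest counts came without control replicate 1, deleted replicate 2 or deleted replicate 3. Goblet cell calls rose to 10 with a variance trend and robust prior, 11 without dim genes and 14 with array weights. Paneth cell calls stayed at 8 in those settings. The part of cell makeup in the mitotic values was not tested.

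Of the other cells a preparation can hold, lymphocytes may divide too. Of 16 T cell markers 14 stood below 0 (median −0.20, 0 called, none at an unadjusted p under 0.05, limma), with list means of 8.05 to 8.61 in the controls and 7.83 to 8.37 on the deleted arrays. Their medians by array ran from −0.33 to 0.24 in the controls and from −0.56 to −0.08 on the deleted arrays. Of 14 B and plasma cell markers 9 stood below 0 (0 called and 2 lower at an unadjusted p under 0.05, limma), against 8.53% of all genes lower at that threshold. Their medians by array were −0.25, −0.24 and 0.45 on control arrays 1, 2 and 3, and −0.32 to −0.05 on the deleted arrays. With the Gapdh covariate 2 of these markers were called lower. The part of lymphocytes in the mitotic values was not tested. Without deleted replicate 1, the array highest in endothelial, fibroblast and smooth muscle markers, the median of the 37 genes was −0.43. Fibroblast and smooth muscle markers (16 genes) and red blood cell markers (5 genes) had medians of 0.19 and −0.04, with 0 called (2 and 0 higher at an unadjusted p under 0.05, limma). Across all genes 8.12% were higher at that threshold. With array weights 2 fibroblast and smooth muscle markers were called higher.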

How the data were processed

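The authors deposited log2 expression values made with RMA, per the submitters' processing notes, which give no version. The table held 45101 probe sets on 6 arrays, 34945 of them paired with 1 gene by an annotation of the platform that can be outdated; probe sets with several genes (932) or none (9160) and 64 control probe sets were left out. RMA pulls dim signals together, so differences of dim genes are understated; 3 arrays per group limit the precision.

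A gene was represented by its brightest probe set, with no filter on dim genes. Deleted minus control was fitted with limma 3.58.1 in R 4.3.3 (lmFit, eBayes, two-sided) on all 18193 genes and adjusted by Benjamini-Hochberg at 0.05; the steps were tested on simulated data. SDs are over the 3 arrays of a group, which the labels call biological replicates. SEs are those of the limma difference, with each gene's variance pooled over both groups and drawn toward a value shared by all genes. They can therefore differ from the spread of the gene's own arrays. Promoter motifs were matched letter by letter with Python 3.11.15 in RefSeq windows (the first window of each gene). The members, gene lists and settings were chosen with earlier results of these data known. Named genes are all members, up to 5 genes with the smallest p of the other mitotic and S-phase lists and up to 3 of each other list, and Casp8. Of the CDK inhibitors and p53 targets, all at an unadjusted p under 0.05 are named. Of the cell type lists, those called among the crypt markers are named. Other settings were a replicate block, a filter on dim genes, other choices of probe set, a variance trend with robust prior, array weights, median centring, repeated quantile normalisation, a Gapdh covariate, and leaving out arrays. Same-numbered arrays were not paired: the correlations of their deviations from the group means were 0.077, 0.10 and −0.0074.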

Additional observations from a re-analysis of the deposited data

How the results depend on the processing

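The median of the 37 mitosis and spindle genes stayed negative in each setting run, from −0.22 (Gapdh covariate) to −0.44, and without each array in turn lay between −0.44 and −0.27. It was −0.30 with median centring and with repeated quantile normalisation. The 0 calls became 7 with array weights and remained 0 in every other setting, the replicate block included; that block left 113 genes called in all, against 141. The count of all genes called was 36 with the Gapdh covariate, 1406 with array weights, 295 without dim genes, 252 with a variance trend and robust prior, 5 without control replicates 1 and 2, and 18 to 251 without 1 array, lowest without deleted replicate 3 and highest without deleted replicate 1. Without control replicates 1, 2 and 3 it was 23, 31 and 56, and without deleted replicate 2 it was 23. The 24 genes free of overlap were 10 if each probe set had to be, and of these only Anln and Ccna2 had more than 1 probe set. The genes free of overlap were 24 to 30 without 1 array, where fewer arrays make overlap rarer. They were 19 with median centring and 21 with repeated quantile normalisation. Without probe sets named _x_at or _s_at they were 21, and with the mean over probe sets 22. The share of all genes free of overlap in these settings is not given here. The counts therefore cannot be set against the 11.2% of all genes in the main fit. Of 590 single values, 572 kept sign and side of the threshold. Signs turned with the Gapdh covariate for Plk1 (0.028), Aurka (0.040), Espl1 (0.0075) and Prc1 (0.25), and without control replicates 1 and 2 for Aurka (0.035), Espl1 (0.00077) and Prc1 (0.24). Without 1 array, Prc1 ran from −0.34 to 0.063 (without control replicate 2), Foxm1 from −0.012 (without deleted replicate 1) to 0.10 and Ect2 from −0.25 to 0.058 (without deleted replicate 1). The sign also turned for Foxm1 with the mean of its probe sets (−0.11). None of these was called, and the cause was not tested.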
